A study of Mus musculus with 4 samples.

Results

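Chemokine receptors are G protein-coupled receptors that sense chemokines, small secreted proteins, and steer white blood cells through tissue. The binding of a chemokine activates inhibitory G proteins of the Gi class, which act on the cytoskeleton and on integrins, and kinases of the GRK family then switch the receptor off. On lymphocytes the set of receptors is known to mark where a cell can go, to lymph nodes (CCR7), the gut (CCR9), skin and allergic airways (CCR4 and CCR8) or inflamed tissue (CXCR3, CXCR6 and CCR6). The 10 genes *Ccr2*, *Ccr4*, *Ccr6*, *Ccr7*, *Ccr8*, *Ccr9*, *Cxcr3*, *Cxcr4*, *Cxcr6* and *Cx3cr1* were taken by gene symbol from the 24537 genes of the tables, and all 10 were found. Group 2 innate lymphoid cells (ILC2s) are lymphocytes without antigen receptors that make type 2 cytokines such as IL-5 and IL-13.

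ILC2s were sorted from bronchoalveolar lavage (BAL) fluid, the liquid flushed out of the airways, 1 day after the final challenge. The IL-33 group (2 libraries, labelled acute IL-33, CD25High) came from Gata3-YFP/YFP mice given 0.5 µg of the cytokine IL-33 on 3 occasions. The chronic HDM group (2 libraries, labelled chronic HDM, CD25Low) came from Gata3-YFP/WT mice given 25 µg of house dust mite extract (HDM) 3 times a week for 5 weeks. All mice carried the GATIR allele, a YFP reporter placed in the *Gata3* gene, on a C57BL/6 background and were about 8 to 16 weeks old, and cells were sorted as lineage-negative, Sca-1+ and YFP+. The study's methods speak of homozygous mice only and of no CD25 gate, which differs from the labels, so that stimulus, its duration, the reporter dose and the CD25 label cannot be told apart. The number of mice behind each library is not given, so p-values rest on how far these libraries spread, and that spread may be technical. There were no untreated samples among the 4 libraries. The libraries held 10696041 to 12054782 reads in genes after IL-33 and 15650726 to 16092271 after chronic HDM. Reads of 45S ribosomal RNA took 3.45% to 4.95% and 17.4% to 25.4% of these. Values are RPKM, reads scaled to exon length and to the mapped reads of the library, and so compare genes per length. As in any bulk sample, fewer cells with a transcript and less of it per cell cannot be told apart.

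All 14 ILC2 markers listed, among them *Gata3*, *Il1rl1*, *Rora*, *Il7r* and *Klrg1*, averaged 2 RPKM or more, and 2 were called higher in each direction. These were *Il2ra* and *Il5* after IL-33 and *Gata3* and *Il1rl1* after chronic HDM, beside 2.8% and 0.536% of all genes tested. *Gata3*, the gene that carries the reporter, was at 14.9 and 18.9 RPKM after IL-33 against 216 and 195 after chronic HDM. No read was found for *Cd4*, *Cd5*, *Cd8a* and *Cd8b1* of T cells or *Ms4a1*, *Pax5* and *Cr2* of B cells, while other markers of both lists were detected. The 9 T cell markers had sums of 146 and 177 RPKM in the IL-33 libraries against 252 and 240.2, mostly *Cd3g* (76.0 and 101 against 68.8 and 83.3) and *Lat* (65.5 and 73.0 against 180.5 and 157, adjusted p = 0.0142 from limma), and *Cd3d* and *Cd3e* reached at most 2.83 and 2.44. The B cell marker *Cd79b* was at 38.4 and 27.4 RPKM after IL-33 against 8.74 and 6.67 (adjusted p = 0.0191 from limma). The summed RPKM of 9 macrophage and monocyte markers was 1242 and 283 in the IL-33 libraries and 3099 and 8496 in the chronic HDM libraries, of which *Lyz2* and *Chil3* made up most. Of the 9, 6 were tested and 0 were called with limma (3 had an unadjusted p under 0.05). With limma-voom on recovered reads 0 of all 9523 genes tested were called, so its count for any list of genes decides nothing. The sum of 10 dendritic cell markers was 1108 and 1044 against 70.8 and 111, of which the MHC class II gene *H2-Ab1* held 1063 and 1030 against 59.5 and 80.1 and was the 1 called of 4 tested, with *Fscn1* and *Cd209a* without a read in any library. The 6 NK cell markers summed to 10.1 and 21.3 RPKM after IL-33 and to 0 and 63.5 after chronic HDM, mostly *Gzma*. The 5 basophil and mast cell markers summed to 52.2 and 43.1 against 0 and 2.87, mostly *Mcpt8*, which was called, and *Ms4a2* and *Prss34* had no read. The 6 eosinophil markers summed to 22.8 and 6.42 against 63.3 and 46.1, mostly *Ear2*, with *Epx* at 0, and the 6 neutrophil markers to at most 14.1, with *S100a9*, *Csf3r* and *Ly6g* at 0.

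*Cxcr6* and *Ccr8* were the most abundant of the receptor RNAs in every library. *Cxcr6*, the receptor for CXCL16, was at 795 and 718 RPKM in the IL-33 libraries and at 700.2 and 607 RPKM in the chronic HDM libraries. *Ccr8*, the receptor for CCL1 found on type 2 lymphocytes, was at 667 and 648 RPKM after IL-33 and at 642 and 559.7 RPKM after chronic HDM. Both genes thus stood at nearly one level in all 4 libraries, with the IL-33 libraries just above. Among all 24537 genes *Cxcr6* ranked between 36 and 55 by RPKM and *Ccr8* between 42 and 67. Together they held 82.3% and 80.9% of the summed RPKM of the 10 receptors in the IL-33 libraries against 86.9% and 89.3% in the others. By recovered reads, with no division by exon length, the same shares were 76% and 73.5% against 74.5% and 79.4%.

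**Figure D1:**
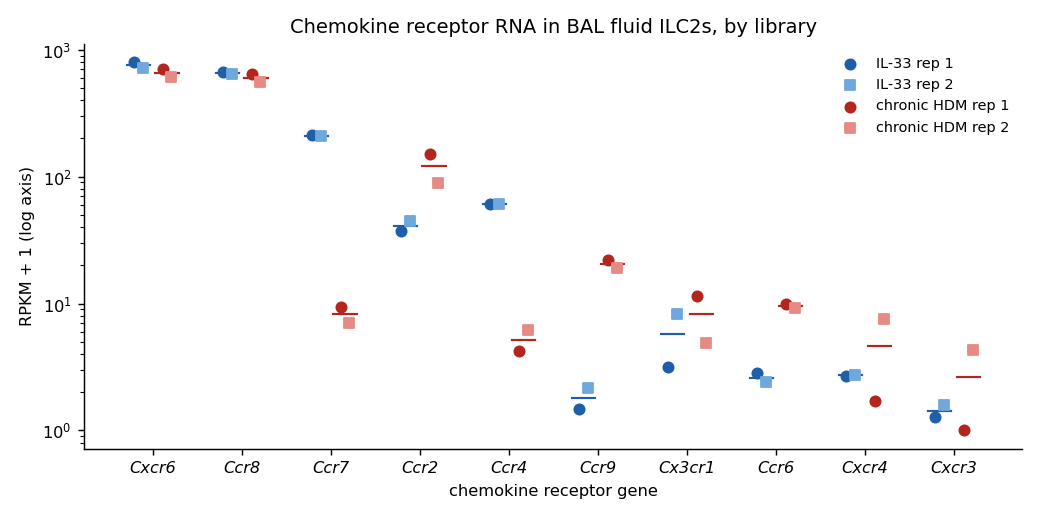
RPKM + 1 on a log axis of the 10 chemokine receptor genes, ordered by their mean over the 4 libraries, with a point for each library and a line at each mean of 2 libraries. *Cxcr6* and *Ccr8* stay near one level, *Ccr7* and *Ccr4* are high only in the IL-33 libraries, and *Ccr9*, *Ccr2* and *Ccr6* are higher in both chronic HDM libraries.

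In the order by mean RPKM after IL-33, *Cxcr6* and *Ccr8* were followed by *Ccr7*, *Ccr4*, *Ccr2*, *Cx3cr1*, *Cxcr4*, *Ccr6*, *Ccr9* and *Cxcr3*. The ranges of the libraries overlapped between neighbours for *Cxcr4* and *Ccr6* and for *Ccr9* and *Cxcr3*. After chronic HDM the order was *Cxcr6*, *Ccr8*, *Ccr2*, *Ccr9*, *Ccr6*, *Ccr7*, *Cx3cr1*, *Ccr4*, *Cxcr4* and *Cxcr3*. Here *Cxcr6* and *Ccr8* overlapped, as did each pair of neighbours from *Ccr6* down to *Cxcr3*. The places behind the leading pair therefore changed hands, from *Ccr7* and *Ccr4* to *Ccr2* and *Ccr9*. *Ccr7* RNA exceeded *Ccr9* RNA 443-fold and 182-fold in the IL-33 libraries, whereas in the chronic HDM libraries *Ccr9* exceeded *Ccr7* 2.48-fold and 2.97-fold.

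**Figure D2:**
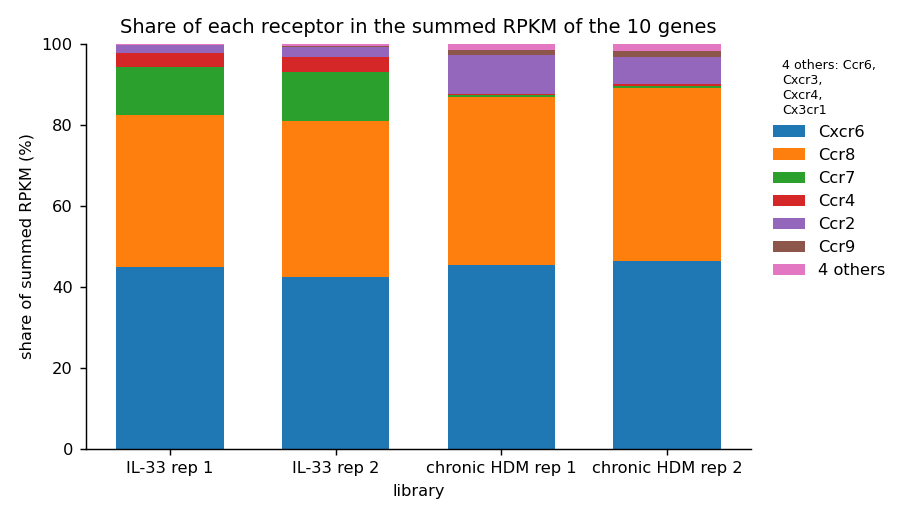
Share of each receptor gene in the summed RPKM of the 10 genes (stacked bars, in percent) for each of the 4 libraries. *Cxcr6* and *Ccr8* fill 80.9% to 89.3% of each bar, *Ccr7* goes from 11.9% and 12.3% after IL-33 to 0.545% and 0.464% after chronic HDM, and *Ccr2* from 2.04% and 2.58% to 9.72% and 6.8%.

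The groups were compared to find which receptors differ between ILC2s activated acutely by IL-33 and those from chronic HDM exposure. The 9523 genes averaging 2 RPKM or more were tested with limma on log2(RPKM + 1), and a call needed an adjusted p below 0.01 together with a log2 fold change beyond 1 up or down. A positive sign means more RNA in the IL-33 libraries, and on this scale the change of low genes is understated. Of the 10 receptors, 9 were tested, *Ccr7* and *Ccr4* were called higher after IL-33, *Ccr9* was called higher after chronic HDM, 6 were not called and *Cxcr3* fell below the minimum. Of all genes tested, 2.8% were called higher after IL-33 and 0.536% higher after chronic HDM. *Ccr9*, *Ccr6* and *Cxcr4* reached the minimum only through the chronic HDM libraries. The libraries of the groups did not overlap for 7 of the 9 receptors, 4 higher after IL-33 and 3 higher after chronic HDM, and for 65.2% of all genes tested. The median log2 fold change was -0.40 over the 9 receptors and 0.28 over all genes tested. The smallest two-sided p that an exact permutation of 2 against 2 libraries allows for one gene is 0.333.

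*Ccr7*, the receptor for CCL19 and CCL21 that guides lymphocytes and dendritic cells to lymph nodes, was higher after IL-33. Its exons (chromosome 11, 99144199 to 99155077 of mm10) held 211 and 208 RPKM in the IL-33 libraries and 8.42 and 6.06 RPKM in the chronic HDM libraries. Each IL-33 library was at least 24.7-fold above each chronic HDM library. The means were 209.5 ± 2.43 and 7.24 ± 1.67 RPKM (SD, n = 2), a log2 fold change of 4.69 (standard error 0.26, 95% interval 4.04 to 5.34, adjusted p = 0.00497 from limma). By unadjusted p it ranked 7 among all genes tested. High levels of *Ccr4* and *Ccr7* in IL-33-activated ILC2s were already reported by the study from these libraries. *H2-Ab1* moved the same way, from 59.5 and 80.1 RPKM after chronic HDM to 1063 and 1030 after IL-33. The study states that ILC2s can themselves express MHC class II, so this gene does not tell them from dendritic cells. The dendritic cell markers *Xcr1*, *Zbtb46* and *Ccl22* also had higher values in both IL-33 libraries. *Xcr1* (6.42 and 6.16 RPKM after IL-33, 3.66 and 2.38 after chronic HDM) was not called. *Zbtb46* (1.04 and 2.09 against 0 and 0.931) and *Ccl22* (0.38 and 0.66 against 0 and 0) were not tested. Of the other 6 markers, *Fscn1* and *Cd209a* had no read, *Flt3* had at most 0.305 RPKM, and *Ccl17*, *Itgax* and *Clec9a* were not higher in both IL-33 libraries. The part of dendritic cells in the value of *Ccr7* was not tested.

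*Ccr4*, the receptor for CCL17 and CCL22 of Th2 cells and ILC2s, was likewise higher after IL-33. It lies on chromosome 9 (114490316 to 114496544) and was at 59.6 and 59.8 RPKM in the IL-33 libraries and at 3.22 and 5.2 RPKM in the chronic HDM libraries. The groups were separated at least 11.5-fold and the IL-33 libraries differed by less than 1 RPKM. The log2 fold change was 3.57 (standard error 0.34, 95% interval 2.73 to 4.41, adjusted p = 0.00687 from limma). *Ccr4* was not called with median-of-ratios scaling (adjusted p = 0.0104) or with scaling without 45S ribosomal RNA (adjusted p = 0.0113). In number of reads, *Ccr4* held 2173 and 1954 in the IL-33 libraries against 172 and 266.

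*Ccr9*, the receptor for CCL25 that directs cells to the small intestine, ran the other way. It lies on chromosome 9 (123767211 to 123783457) and was at 0.477 and 1.14 RPKM in the IL-33 libraries and at 20.9 and 18.0 RPKM in the chronic HDM libraries. These are 27 and 58 reads against 1733 and 1429, and the groups were at least 15.7-fold apart. The log2 fold change was -3.52 (standard error 0.44, 95% interval -4.62 to -2.42, adjusted p = 0.00994 from limma), just within the threshold. *Ccr9* was no longer called when the minimum was 1 RPKM (adjusted p = 0.0129) or with median-of-ratios scaling (adjusted p = 0.0122). Its adjusted p ran from 0.000981 to 0.039 over the 14 alternatives that kept all 4 libraries.

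When an IL-33 library was left out, the spread came from the chronic HDM pair alone. Such fits leave a lone IL-33 library and cannot decide whether a receptor is called, so only their log2 fold changes are given. Without IL-33 replicate 1 these were 4.68 for *Ccr7*, 3.57 for *Ccr4* and -3.25 for *Ccr9*. Without IL-33 replicate 2 they were 4.70, 3.57 and -3.79. With limma-voom on recovered reads 0 of all 9523 genes tested were called, so the lack of a call is not particular to these receptors. By that method *Ccr7* stood at 4.75 (adjusted p = 0.0137), *Ccr4* at 3.75 (adjusted p = 0.0164) and *Ccr9* at -4.85 (adjusted p = 0.0369) on the log2 scale.

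**Figure D3:**
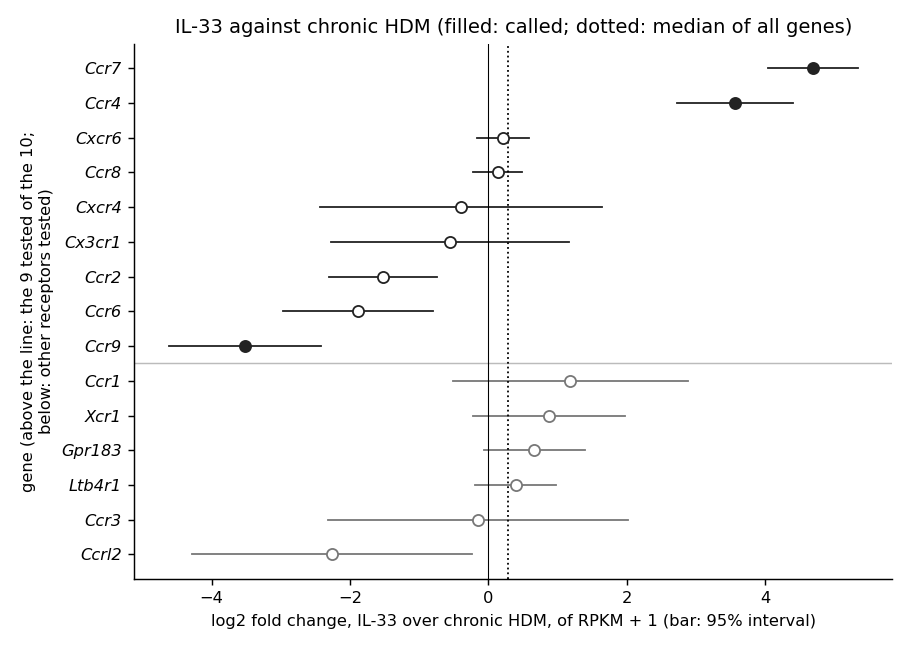
Log2 fold change of RPKM + 1, positive where IL-33 is higher, with its 95% interval from limma for the 9 tested receptors of the 10 and, below the line, the 6 other chemoattractant receptors tested, with filled points for called genes and a dotted line marking the all-gene median (0.28). *Ccr7* (4.69) and *Ccr4* (3.57) lie far to the right and *Ccr9* (-3.52) far to the left, and the intervals of *Cxcr6* and *Ccr8* are the narrowest around 0.

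*Ccr2* and *Ccr6* stood higher in each chronic HDM library and did not pass the threshold with limma. The study, which used DESeq2, names *Ccr2* among the genes higher after chronic HDM. *Ccr2*, the receptor for CCL2 that brings monocytes and some lymphocytes out of the bone marrow, was at 36.3 and 43.6 RPKM after IL-33 and at 150.2 and 88.8 RPKM after chronic HDM. The groups did not overlap (limma log2 fold change -1.52, standard error 0.31, 95% interval -2.30 to -0.74, adjusted p = 0.0278 from limma). It lies on chromosome 9 (124102183 to 124109140). The summed macrophage and monocyte markers were higher in the same group. Between the chronic HDM replicates, *Ly6c2* (6.54 and 0.068 RPKM in replicates 1 and 2) and *Adgre1* (9.25 and 3.43) were higher in replicate 1, as *Ccr2* was. The markers *Lyz2* (933 and 2259), *Chil3* (2144 and 6162), *Cd68* (5.54 and 51.7), *Csf1r* (0.756 and 6.92), *Mrc1* (0 and 8.91), *Marco* (0 and 3.51) and *Itgam* (0 and 0.152) were higher in replicate 2. Their part in the value of *Ccr2* was not tested. *Ccr6*, the receptor for CCL20 known from group 3 innate lymphoid cells and Th17 cells, was at 1.82 and 1.4 RPKM after IL-33 and at 8.98 and 8.17 RPKM after chronic HDM (chromosome 17, 8243807 to 8257129). Its log2 fold change was -1.88 (standard error 0.43, 95% interval -2.97 to -0.79, adjusted p = 0.0372 from limma), from 29 and 20 reads against 210 and 183. Without chronic HDM replicate 2 the log2 fold changes were -1.89 for *Ccr2* and -1.94 for *Ccr6*. Without chronic HDM replicate 1 they were -1.14 and -1.82. These fits leave a lone chronic HDM library and cannot decide whether either gene is called.

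The interval of the difference was narrow for the most abundant pair. For *Cxcr6* the means were 756 ± 54.5 and 653 ± 66.0 RPKM (SD, n = 2), a log2 fold change of 0.21 (95% interval -0.16 to 0.58, adjusted p = 0.353 from limma). For *Ccr8* they were 658 ± 13.4 and 601 ± 57.9 RPKM (SD, n = 2), a log2 fold change of 0.13 (95% interval -0.23 to 0.49, adjusted p = 0.541 from limma). Both lay within 0.15 of the median of all genes tested, and their sign turned under each of 3 other scalings, which moved that median by -0.24 to -0.29. *Cxcr6* (chromosome 9, 123806477 to 123811754) lies within the span of *Fyco1* on the opposite strand, and Smart-seq2 reads carry no strand. *Fyco1* was at 4.33 to 6.27 RPKM.

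For *Cx3cr1*, *Cxcr4* and *Cxcr3* the libraries of the groups overlapped. *Cx3cr1*, the receptor for fractalkine, was at 2.16 and 7.29 RPKM after IL-33 and at 10.5 and 3.9 RPKM after chronic HDM, so that replicates of each group differed more than the group means (log2 fold change -0.56, 95% interval -2.28 to 1.17, adjusted p = 0.599 from limma). *Cxcr4*, the receptor for CXCL12 that holds cells in the bone marrow, was at 1.69 and 1.74 RPKM after IL-33 and at 0.69 and 6.58 RPKM after chronic HDM (log2 fold change -0.40, 95% interval -2.44 to 1.64, adjusted p = 0.756 from limma). *Cxcr3*, the receptor for CXCL9, CXCL10 and CXCL11 of type 1 lymphocytes, was at 0.285 and 0.584 RPKM after IL-33, from 6 and 11 reads. In chronic HDM replicate 1 it had no read, which allows up to 0.0972 RPKM by counting error alone, and in replicate 2 it had 98 reads or 3.32 RPKM. *Cxcr4* and *Cxcr3* were thus highest in chronic HDM replicate 2. In this library the summed NK cell markers (63.5 against 0 RPKM in replicate 1) and the summed macrophage and monocyte markers (8496 against 3099) were also higher than in its partner. Of the NK cell sum, *Gzma* held 62.0 RPKM, *Prf1* 1.33 and *Eomes* 0.134. *Ncr1*, *Klrb1c* and *Klre1* had no read in either chronic HDM library. Of the macrophage and monocyte markers, *Ly6c2* and *Adgre1* were lower in replicate 2 and the others were higher. The part of other cells in the values of *Cxcr4* and *Cxcr3* was not tested.

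Of the 10 genes, 6 lie on chromosome 9. *Cx3cr1* and *Ccr8* are next to each other, 23.8 kb apart, with opposite strands, yet *Ccr8* was at 559.7 to 667 RPKM and *Cx3cr1* at 2.16 to 10.5 RPKM. *Ccr9*, *Cxcr6* and *Ccr2* lie within 341.9 kb of a receptor cluster, and this stretch also holds *Xcr1*, *Ccr1*, *Ccr1l1* and *Ccr3*. Within it *Ccr9* and *Cxcr6* are 23.0 kb apart, and the first was at most 1.14 RPKM after IL-33 where the second was at 718 RPKM or more. *Ccr2* lies 290.4 kb beyond *Cxcr6*. Of these genes *Ccr9* was called and the others were not called or not tested.

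**Figure D4:**
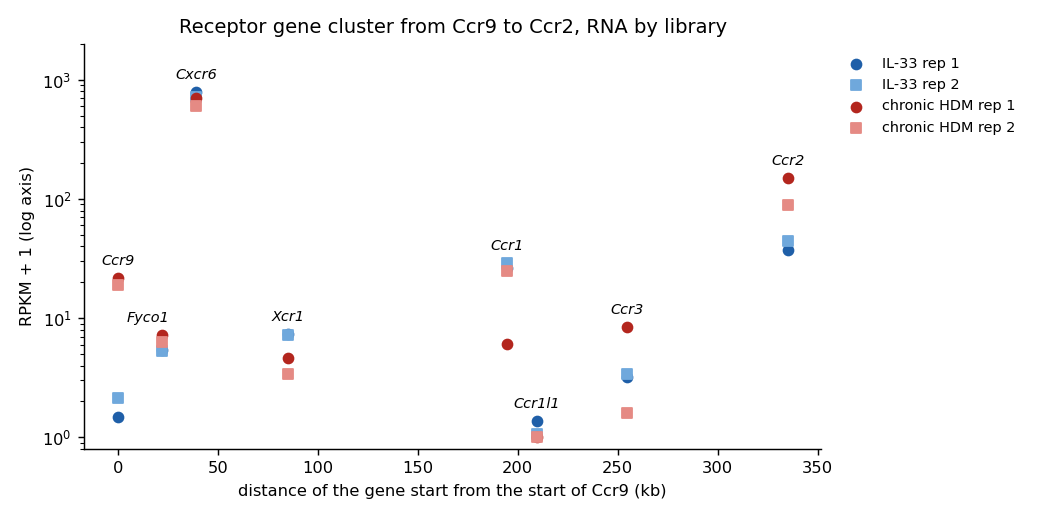
RPKM + 1 on a log axis of the 8 genes from *Ccr9* to *Ccr2* against the distance of each gene start from that of *Ccr9* in kb, each of the 4 libraries drawn as its own point. *Cxcr6* stands far above its neighbours, *Ccr9* and *Ccr2* are higher in both chronic HDM libraries, and *Ccr1* and *Ccr3* differ most between the chronic HDM libraries themselves.

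The promoters of the called receptors *Ccr4* and *Ccr9* and of the abundant *Cxcr6* and *Ccr8* are given to show the starts of genes that differ in level or in direction. RefSeq promoters (GRCm38.p6, the build of mm10, 250 bases before to 50 after the start) matched 9 of the 10 genes, and *Ccr7* had no entry. Capitals mark any match, on either strand, to 5 short motifs. The letters searched were AGATAA for the GATA factors of type 2 lymphocytes. For nuclear receptors such as the ROR factors the half-site AGGTCA was used. For AP-1, which acts downstream of cytokine and antigen signals, the search was for TGANTCA in any of its forms. For STAT factors, which act downstream of cytokine receptors, it was TTCNNNGAA in any of its forms. For the TATA box, where transcription starts are set, it was TATAAA alone. The 4 stretches, each read 5′ to 3′ along the strand of its gene, lie at chr9:114496495-114496794 (minus strand, *Ccr4*), chr9:123766961-123767260 (plus strand, *Ccr9*), chr9:123806227-123806526 (plus strand, *Cxcr6*) and chr9:120091883-120092182 (plus strand, *Ccr8*).
Ccr4: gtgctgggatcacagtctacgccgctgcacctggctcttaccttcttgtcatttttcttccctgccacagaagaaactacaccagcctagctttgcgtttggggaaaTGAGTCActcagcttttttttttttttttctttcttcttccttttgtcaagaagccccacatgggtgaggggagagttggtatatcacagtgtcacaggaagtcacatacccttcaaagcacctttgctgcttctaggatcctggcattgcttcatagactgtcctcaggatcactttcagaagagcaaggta
Ccr9: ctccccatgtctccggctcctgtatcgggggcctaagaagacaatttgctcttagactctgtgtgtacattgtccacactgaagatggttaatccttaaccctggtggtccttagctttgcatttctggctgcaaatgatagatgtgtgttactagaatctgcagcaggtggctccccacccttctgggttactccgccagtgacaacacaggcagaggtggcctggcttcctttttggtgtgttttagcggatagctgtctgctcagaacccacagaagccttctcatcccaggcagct
Cxcr6: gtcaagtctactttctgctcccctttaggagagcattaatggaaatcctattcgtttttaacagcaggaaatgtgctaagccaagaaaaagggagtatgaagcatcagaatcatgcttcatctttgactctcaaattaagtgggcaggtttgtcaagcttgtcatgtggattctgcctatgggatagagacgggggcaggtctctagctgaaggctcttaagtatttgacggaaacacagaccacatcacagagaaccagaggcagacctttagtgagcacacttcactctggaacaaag
Ccr8: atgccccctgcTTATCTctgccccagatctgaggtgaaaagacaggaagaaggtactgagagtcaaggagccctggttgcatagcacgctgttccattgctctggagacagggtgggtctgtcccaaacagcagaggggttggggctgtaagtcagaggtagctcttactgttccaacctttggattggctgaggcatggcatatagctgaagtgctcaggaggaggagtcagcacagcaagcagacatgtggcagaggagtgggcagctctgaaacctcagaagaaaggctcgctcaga
The window of *Ccr4* held an AP-1 match that begins at base -143 from the start, and that of *Ccr8* a GATA match at -239. No match overlapped another in these windows, and those of *Ccr9* and *Cxcr6* held none of these letters. Among the other receptors, *Ccr2* had a GATA match at -97. *Ccr6* had a half-site match at -44 and STAT matches at -157 and -120 in the first of its RefSeq promoters and a GATA match at -70 in the other. *Cxcr4* had overlapping TATA box matches at -32 and -30. Of 32851 promoter windows of the same length, 11.2% held the GATA letters, 16.3% the half-site, 7.81% the AP-1 letters, 8.3% the STAT letters and 13.6% the TATA box. For *Ccr6* the start used in the tables differs from both starts in RefSeq.

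Other receptors for chemokines and related attractants were mostly low. Of 20 listed, 14 fell below a mean of 2 RPKM, 5 of them without a read in any library. Of the 6 tested, 0 were called with limma (1, *Ccrl2*, had an unadjusted p under 0.05). The highest was *Ltb4r1*, the leukotriene B4 receptor, at 244 and 310.2 RPKM after IL-33 against 247 and 177 (adjusted p = 0.278). *Gpr183*, a receptor for oxysterols that positions lymphocytes, was at 41.2 and 44.2 RPKM against 32.3 and 21.9 (adjusted p = 0.165), and *Xcr1*, the receptor for XCL1, at 6.42 and 6.16 against 3.66 and 2.38 (adjusted p = 0.21). *Ccr1* was at 25.5 and 28.1 RPKM after IL-33 and at 5.02 and 23.7 after chronic HDM (adjusted p = 0.262), and *Ccr3* at 2.22 and 2.42 against 7.46 and 0.599 (adjusted p = 0.92). *Ccrl2*, a receptor-like protein that holds chemerin, was at 1.43 and 2.28 RPKM against 28.8 and 5.1 (adjusted p = 0.107, all from limma). *Ptgdr2*, the prostaglandin D2 receptor CRTH2 that is known from ILC2s, reached at most 0.296 RPKM.

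Downstream of the receptors, 33 of 37 listed signalling genes were tested, of which 32 were not called with limma. In this list 1 gene was called higher after IL-33 (beside 2.8% of all genes tested) and 0 the other way (beside 0.536%). Of the 33, 17 had an unadjusted p under 0.05. The called gene was *Grk2*, a kinase that phosphorylates activated chemokine receptors and starts their desensitization. *Grk2* was at 78.6 and 75.8 RPKM in the IL-33 libraries and at 20.5 and 19.2 RPKM in the chronic HDM libraries (limma log2 fold change 1.91, standard error 0.23, adjusted p = 0.00964), and each group was tight. It was called in 6 of the 14 alternatives that kept all 4 libraries, but not with quantile normalization (adjusted p = 0.0141) or median-of-ratios scaling (adjusted p = 0.0144). Its log2 fold change was positive in all 18 alternatives. The median log2 fold change of the 33 genes was 0.30, beside 0.28 for all genes tested.

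Of 17 genes for ligands of these receptors, 7 were tested and 0 were called with limma (2 had an unadjusted p under 0.05). *Ccl1*, which binds CCR8, was at 32.1 and 28.8 RPKM after IL-33 and at 18.3 and 24.0 after chronic HDM (adjusted p = 0.251). *Cxcl10*, which binds CXCR3, was at 0.977 and 2.18 RPKM against 16.4 and 20.3 (adjusted p = 0.0135), and *Ccl7*, which binds CCR2, at 14.2 and 16.3 against 0 and 3.56 (adjusted p = 0.0526). The study, which used DESeq2, names *Cxcl10* among the genes higher after chronic HDM. *Ccl17*, which binds CCR4, differed more within the groups than between them, at 34.5 and 4.18 RPKM against 4.39 and 18.5 (adjusted p = 0.812). *Ccl8* (adjusted p = 0.848) and *Ccl25* (adjusted p = 0.251, all from limma), which bind CCR8 and CCR9, had means of 3.55 and 3.1 RPKM over the 4 libraries. Genes for the ligands of CCR7, *Ccl19* and *Ccl21a*, and that of CXCR4, *Cxcl12*, had no read in any library. *Ccl19* is annotated on a random contig of chromosome 4, and whether reads can be assigned there was not tested.

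By Euclidean distance over the log2(RPKM + 1) values of the 4 libraries, the gene closest to *Ccr7* was *Rrm2* (distance 0.74; 244.5 and 240.7 RPKM against 6.65 and 9.7), followed by *Hist1h2ao* (0.82, uncertain because histone genes have near-identical copies) and *Mcm5* (1.39). Those closest to *Ccr4* were *Tyms* (0.82), *Ccna2* (0.86) and *Mad2l1* (0.86), and those closest to *Ccr9* were *Prss23* (0.42), *Bcl2l11* (0.61) and *Dennd6b* (0.78). The neighbours of *Ccr7* and *Ccr4* were each called higher after IL-33 and those of *Ccr9* were not called (adjusted p = 0.0111 to 0.0142 from limma). These distances describe 4 libraries and carry no test. The neighbours were picked on the same values that entered limma, so their calls are not independent of those of the receptors.

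**Figure D5:**
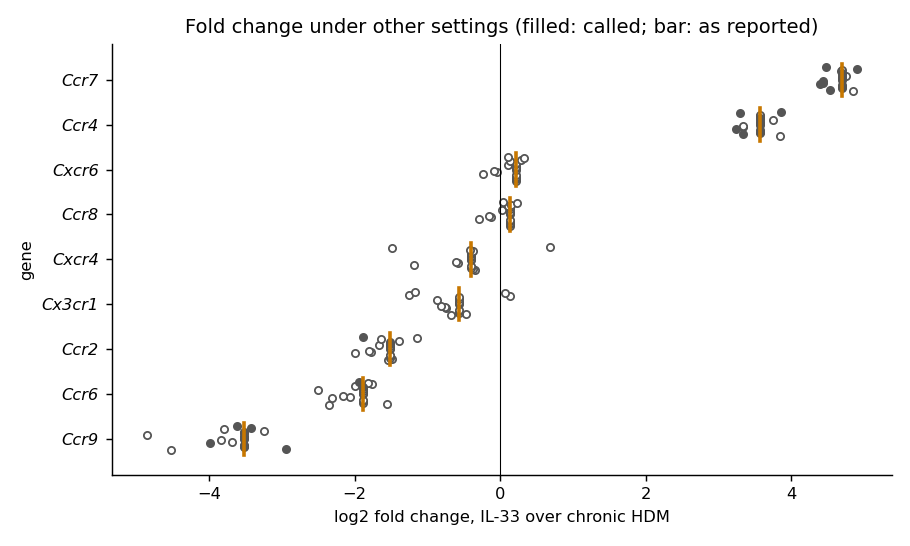
Log2 fold change, positive where IL-33 is higher, of the 9 tested receptors as reported (bar) and under the other settings (points, filled where called). *Ccr7* stays between 4.39 and 4.90 and *Ccr4* between 3.24 and 3.85, *Ccr9* between -4.85 and -2.94, and the points of *Cxcr6*, *Ccr8*, *Cxcr4* and *Cx3cr1* fall on both sides of 0.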

How the data were processed

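RNA of BAL fluid ILC2s was compared between 2 IL-33 and 2 chronic HDM libraries. Per the file headers and the study's methods, the authors used HISAT2 to align single 51-bp Smart-seq2 reads to mm10 (the submitters' processing notes give version 2.0.4), summarized exon reads for one RefSeq transcript a gene in HOMER and deposited RPKM values per library. Smart-seq2 amplifies cDNA without molecular identifiers, so the floor given for a gene without reads covers counting error only. Reads were recovered as RPKM times exon length over the worth of 1 read: 99.74% to 99.95% of values above 0 lay within 0.1 of a whole read.

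log2(RPKM + 1) of the 9523 genes averaging 2 RPKM or more entered limma 3.58.1 under R 4.3.3, with moderated variances that follow the mean level, two-sided p-values and Benjamini-Hochberg adjustment across those genes. The thresholds are the study's. The study tested counts with DESeq2, which was not used here. The deposited values are RPKM, and the recovered reads were tested with limma-voom only. The scripts were tested on simulated data. The genes named are the 10 receptors, other receptors and ligands with a mean of at least 2 RPKM (of ligands at most 6), called signalling genes and the 3 closest genes to each called receptor. *Ptgdr2*, the ligand genes without reads and the marker genes were picked for naming with their values in view. Members and lists were chosen with earlier results of these data known. Alternatives covered the pseudocount, the minimum, scaling, variance models, library weights, the threshold, the replicate block, limma-voom and leaving out each library. Proteins were not used here, and some listed genes are not reported here. Figures were drawn with matplotlib 3.10.9.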

Additional observations from a re-analysis of the deposited data

How the results depend on the processing

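*Ccr7* and *Ccr4* were both called higher after IL-33 with a pseudocount of 2, a minimum of 1 or 5 RPKM, quantile normalization, robust variances, a weight per library, the replicate block and an adjusted p under 0.05. 1 of them, *Ccr7*, was called with median-of-ratios scaling and with scaling without 45S ribosomal RNA. No receptor was called in either direction (0) when limma used a pseudocount of 0.1, every gene with a read, or no trend, or with limma-voom (5, 5, 5 and 4 receptors had an unadjusted p under 0.05). Every gene with a read makes 14448 genes tested. Each of these settings called 0 of all genes tested, so the lack of calls is not particular to the receptors. For receptors higher after chronic HDM the count was also 0 at a minimum of 1 RPKM and with the scalings that called 1 receptor after IL-33, 2 with the replicate block (*Ccr9* and *Ccr2*) and 3 at an adjusted p under 0.05 (*Ccr9*, *Ccr6* and *Ccr2*). The cause of these differences was not tested. Leaving out each library in turn left a lone library in its group, taken to vary as the other pair does. These fits therefore cannot decide whether a receptor is called.

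The direction of *Ccr7*, *Ccr4*, *Ccr9*, *Ccr2* and *Ccr6* held in all 18 alternatives. *Cxcr6* turned to -0.24 with quantile normalization, -0.05 with median-of-ratios scaling and -0.08 without 45S ribosomal RNA, and *Ccr8* to -0.29, -0.13 and -0.15. *Cxcr4* turned to 0.68 without chronic HDM replicate 2 and was at -1.48 without chronic HDM replicate 1. *Cx3cr1* turned to 0.14 without IL-33 replicate 1 and 0.06 without chronic HDM replicate 1 and was at -1.25 without IL-33 replicate 2. *Cxcr4* was below the minimum of 5 RPKM. Same-numbered libraries did not deviate together (r = -0.0385 across 9523 genes, which are not independent replicates). With 2 libraries in each group, whose deviations mirror each other, this correlation cannot decide whether the numbers pair the samples. The replicate block gave 987 calls toward IL-33 and 267 toward chronic HDM, against 267 and 51 without it. Over all genes, the count was 0 in both directions for that pseudocount, with every gene tested, no trend or limma-voom (3277, 4013, 3327 and 3055 genes had an unadjusted p under 0.05). A minimum of 1 RPKM called 150 and 25 genes, a minimum of 5 RPKM 502 and 107, a weight per library 692 and 143, an adjusted p under 0.05 1311 and 455, quantile normalization 148 and 119, median-of-ratios scaling 82 and 40 and scaling without 45S ribosomal RNA 53 and 29. Leaving out each library in turn gave 0 to 1872 calls toward IL-33 and 0 to 598 toward chronic HDM. *Cxcr3*, with 0 to 98 reads per library, fell below the minimum of 2 RPKM and was not tested.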
